A study of Mus musculus with 8 samples.

Results

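The 9 genes described here encode proteins of the surface and the polarity machinery of epithelial cells, namely Epcam, Rab25, Crb3, Pard6b, Llgl2, St14, Prss8, Spint1 and Spint2. They were taken by gene symbol from the platform annotation, and where a gene had several probe sets the brightest on average was used. They make up 9 of 17097 measured genes. Expression was measured in mouse skin squamous cell carcinoma (SCC), a tumour of keratinocytes, after transplantation under the label poorly differentiated SCC (PD-SCC, written PD/S-SCC in the sample titles) or well differentiated SCC (WD-SCC). The question was how these genes differed between both stages within tumour lineages.

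Both groups shared everything in the labels but the stage. The donors were K14-HPV16 mice, in which the keratin 14 promoter drives papillomavirus genes in basal keratinocytes, and their tumours were spontaneous or induced with DMBA-TPA, a carcinogen and tumour promoter, without a statement of which lineage was which. The strain is given as FVB/C57/Bl6, and the tumours grew orthotopically in nude mice, with no age stated. Suspensions were depleted of haematopoietic and endothelial cells, and cells with α6-integrin and CD34 on their surface were sorted. Host cells are also mouse cells, so the arrays cannot tell them from tumour cells. PD-SCC was measured on 4 arrays (OT7-1, OT7-2, OT14 and OT15) and WD-SCC on 4 arrays (OT7-2, an OT7 array with no number, OT14 and OT15). The titles call each array a biological replicate. Whether the paired OT7 arrays hold separate tumours is not said, so the tests rest on a spread between samples that could be partly technical.

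Epithelial cells divide their membrane into an apical and a basolateral domain. The Crumbs and Par complexes mark the apical side, the Scribble group with the Llgl proteins marks the basolateral side, and the Rab11 family returns internalised membrane proteins to the surface. At the same surface, the membrane serine proteases matriptase and prostasin are held in check by Kunitz-type inhibitors, and in mouse skin an excess of matriptase in keratinocytes leads to squamous carcinoma unless its inhibitor is raised too. Repressors of the ZEB and SNAI families bind E-box motifs in epithelial promoters.

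Promoter sequences are shown because several of these genes are known as targets of such repressors. In the RefSeq table of build GRCm38.p6, which gives 250 bases before and 50 bases after each transcription start, 6 of the 9 genes had an entry. Prss8, St14 and Llgl2 were not listed. The bases before the start are printed in the direction of the gene with the E-box CACCTG or its reverse complement CAGGTG in capitals. They lie at chr17:87635729-87635978 on the plus strand for Epcam, chr3:88548280-88548529 on the minus strand for Rab25, chr17:57061951-57062200 on the plus strand for Crb3, chr2:168080754-168081003 on the plus strand for Pard6b and chr7:29281978-29282227 on the minus strand for Spint2.
Epcam: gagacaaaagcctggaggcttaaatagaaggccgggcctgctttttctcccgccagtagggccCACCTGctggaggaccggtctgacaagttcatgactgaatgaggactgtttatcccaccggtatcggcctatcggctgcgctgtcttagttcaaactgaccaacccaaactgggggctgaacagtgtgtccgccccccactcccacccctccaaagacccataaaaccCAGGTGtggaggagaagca
Rab25: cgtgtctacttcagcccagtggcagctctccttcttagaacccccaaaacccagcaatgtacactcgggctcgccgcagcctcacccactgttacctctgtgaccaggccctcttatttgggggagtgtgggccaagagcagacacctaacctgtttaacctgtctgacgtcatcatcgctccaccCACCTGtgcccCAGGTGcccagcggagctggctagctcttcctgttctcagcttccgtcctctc
Crb3: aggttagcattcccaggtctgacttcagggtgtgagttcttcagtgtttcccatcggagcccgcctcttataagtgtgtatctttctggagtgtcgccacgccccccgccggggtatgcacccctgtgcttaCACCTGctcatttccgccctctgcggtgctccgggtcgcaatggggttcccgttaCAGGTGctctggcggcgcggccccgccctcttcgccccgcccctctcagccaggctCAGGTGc
Pard6b: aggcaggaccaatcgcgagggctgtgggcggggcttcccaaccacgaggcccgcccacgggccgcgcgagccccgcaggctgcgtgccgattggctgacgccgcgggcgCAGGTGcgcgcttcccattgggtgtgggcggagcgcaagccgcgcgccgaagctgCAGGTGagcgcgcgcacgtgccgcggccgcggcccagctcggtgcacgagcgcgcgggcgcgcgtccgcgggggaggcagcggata
Spint2: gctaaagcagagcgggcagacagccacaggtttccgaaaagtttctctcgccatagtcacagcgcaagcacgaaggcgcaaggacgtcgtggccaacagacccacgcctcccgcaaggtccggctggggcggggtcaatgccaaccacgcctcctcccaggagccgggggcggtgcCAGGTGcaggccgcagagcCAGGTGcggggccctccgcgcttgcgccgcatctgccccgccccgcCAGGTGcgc

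The E-box was found on either strand in the windows of 5 of the 6 genes, while 20.2% of the 32851 mouse promoter windows of the same length held it. Epcam had matches 187 and 19 bases before the start, and Rab25 had a close pair at 64 and 53 bases. In Pard6b the matches lay at 141 and 86 bases, and in Spint2 there were 3, at 74, 55 and 9 bases. Crb3 has 2 listed starts whose windows overlap, and each window held 4 matches, of which 3 are in the printed bases. Spint1 held none. The motif of the grainyhead factors, AACCGGTT, which reads the same on both strands, was in 0 of the 6 genes and in 0.146% of all windows. A match is a string of letters and no measured binding site.

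**Figure D1:**
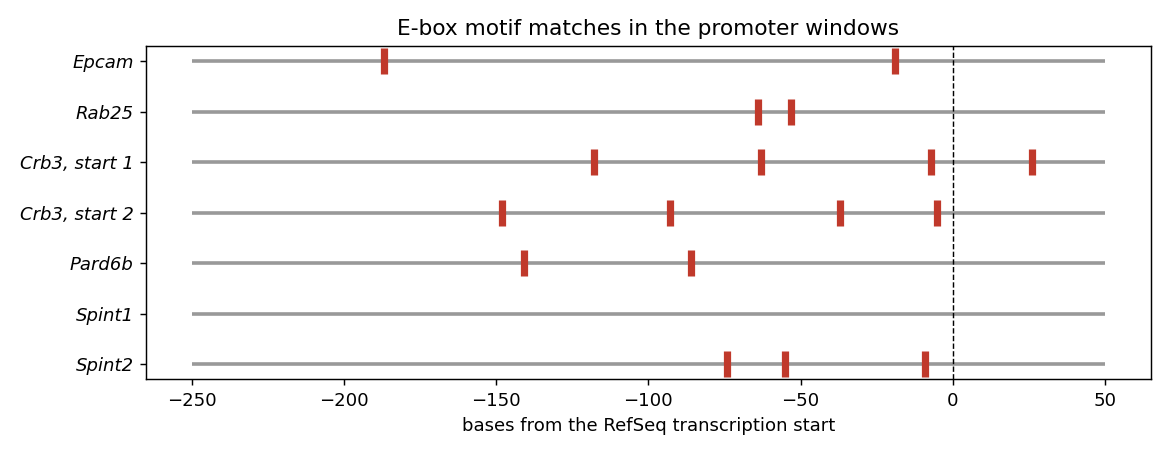
Positions of CACCTG or CAGGTG (red ticks) in the promoter windows of the 6 listed genes, in bases from the RefSeq start (dashed line), with the 2 overlapping windows of Crb3 given separately. Matches stand in all windows but that of Spint1.

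Array-wide values bear on how low a PD-SCC value can be read. The highest of 15 bacterial control probe sets was taken as background, on the assumption that no RNA was added to match them. It read 3.61 to 3.81 on the PD-SCC arrays and 3.82 to 4.37 on the WD-SCC arrays. Nonspecific probes of the highest GC class read 6.66 to 7.08 on the PD-SCC arrays and 8.002 to 8.53 on the WD-SCC arrays, so nonspecific signal moved with stage, and its part in the differences was not tested. Array medians lay between 3.66 and 3.77, and the number of arrays limits the precision of all values. Cd34, on which the cells were sorted, read 6.75 to 8.72 in PD-SCC and 6.72, 7.002 and 6.87 in WD-SCC of OT7 and OT14. On the OT15 WD-SCC array it read 3.58, under the controls, which goes against the label of CD34-sorted cells.

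All 9 genes were lower in PD-SCC than in WD-SCC past an adjusted p of 0.05 (limma with lineage as a block, Benjamini-Hochberg over all genes), where 12.6% of all genes were called in either direction and 4.81% were called lower. The differences lay between -5.08 and -1.50 on the log2 scale, with a median of -3.64, which was the same with Pard6b at its bound, while the median over all genes was -0.06. Each gene was lower in all 3 lineages. For each, all 4 PD-SCC arrays lay below all 4 WD-SCC arrays, which 13.3% of all genes did. Without the OT15 WD-SCC array 6 of the 9 passed, since Pard6b, Spint1 and Spint2 did not (adjusted p = 0.0708, 0.0667 and 0.0727). The genes were chosen with earlier results of these data known, so these counts describe them and are no separate evidence. In RNA of a whole sorted sample, fewer cells with a transcript and less transcript per cell cannot be told apart.

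**Figure D2:**
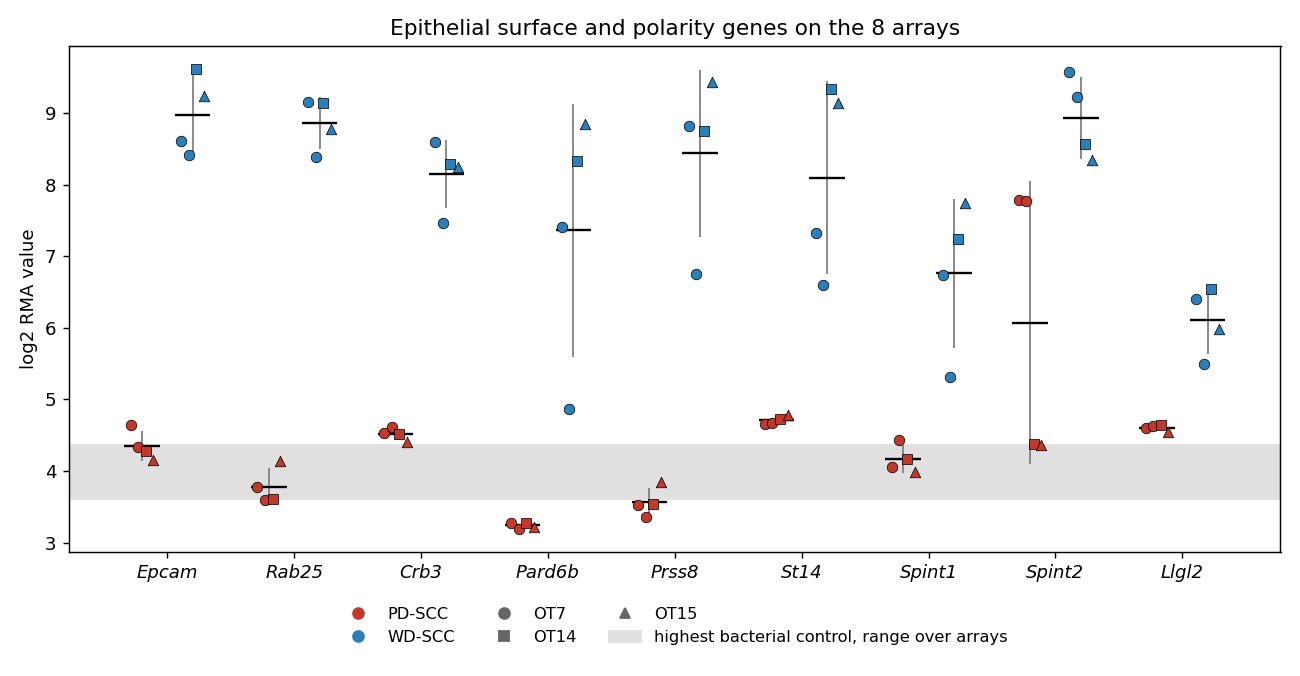
Log2 values of the 9 genes on the 4 PD-SCC (red) and 4 WD-SCC (blue) arrays, with the lineage as the marker's shape, the mean as a black line and the SD as a grey bar. No gene has a PD-SCC value within its WD-SCC range, and Spint2 alone has PD-SCC values far apart, at 7.79 and 7.77 in OT7 against 4.37 and 4.36 in OT14 and OT15.

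The adhesion molecule Epcam and the trafficking protein Rab25 had steep falls. Epcam, a homophilic glycoprotein of epithelial membranes, read 4.64 and 4.33 on the OT7 PD-SCC arrays, 4.28 on the OT14 and 4.16 on the OT15 PD-SCC array, against 8.61, 8.41, 9.61 and 9.24 on the WD-SCC arrays of the same lineages. Every PD-SCC value was a little above that array's bacterial controls. The difference was -4.62 ± 0.27 (SE, adjusted p = 0.00150), a 24.5-fold lower level. A dimmer probe set of Epcam had values of 2.67 to 3.22 in PD-SCC and 3.47 to 4.11 in WD-SCC, and its difference of -0.63 was not past the threshold (adjusted p = 0.0581).

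Epcam also marks Langerhans cells of the epidermis. Their defining gene Cd207 was at or under the bacterial controls on all 8 arrays, with 2.83 to 3.04 in PD-SCC and 3.08 to 3.56 in WD-SCC. The summed level of the 7 Langerhans and dendritic cell markers was 6.24 to 6.53 in PD-SCC and 6.80 to 7.88 in WD-SCC (log2), and 2 of them fell.

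Rab25 belongs to the Rab11 family and is largely restricted to epithelia, where it returns integrins and other cargo to the surface. It read 3.78, 3.60, 3.60 and 4.14 on the PD-SCC arrays of OT7-1, OT7-2, OT14 and OT15, against 9.15, 8.38, 9.13 and 8.77 on the WD-SCC arrays, with the unnumbered OT7 array lowest. Only 2 of the 4 PD-SCC values were above the controls. The difference was -5.08 ± 0.23 (SE, adjusted p = 0.000622), the largest measured difference of the 9, although the order of the falls is not settled where PD-SCC values are at background, as for Rab25, Prss8 and Pard6b.

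Of 22 other genes of Rab11 recycling and apical transport, 5 fell and 0 rose, with a median difference of -0.29. Among all genes 4.81% were called lower. The lowest p belonged to Mal, a raft protein of apical transport, with 4.10, 3.71, 3.75 and 4.29 in PD-SCC and 11.14, 10.45, 12.12 and 11.49 in WD-SCC (difference -7.34, adjusted p = 0.000598). Rab11fip1, an effector that binds Rab11 and Rab25, fell by 2.73 (adjusted p = 0.0110), and Ap1m2, the epithelial clathrin adaptor subunit, fell by 0.90 (adjusted p = 0.0156, with 0.0562 without PD-SCC OT7-2 and 0.0510 without either OT14 array). The broadly expressed Rab11a read 6.19, 6.13, 6.74 and 6.61 in PD-SCC and 7.15, 7.09, 7.74 and 7.42 in WD-SCC. It was thus lower by 0.93 in a pattern without overlap (adjusted p = 0.00477), beside the difference of -5.08 for its relative Rab25. Over the mean of its probe sets Rab11a differed by -0.46 (adjusted p = 0.0186), and its call was lost with averaged OT7 arrays (0.0570) and without lineage OT7 (0.112). Sytl1, the last of the 5, was above the controls on 1 PD-SCC and 1 WD-SCC array (difference -0.51). Its call was lost without any 1 array other than the unnumbered OT7 WD-SCC array (adjusted p of up to 0.0769).

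Among the polarity genes, the apical Crb3 and Pard6b had larger differences than the basolateral Llgl2. Crb3, the Crumbs protein of mammalian epithelia, read 4.53, 4.61, 4.51 and 4.40 in PD-SCC and 8.59, 7.47, 8.29 and 8.24 in WD-SCC. The PD-SCC arrays spanned 0.21 and lay above the controls, and the difference was -3.64 ± 0.26 (SE, adjusted p = 0.00251), 12.4-fold lower. By lineage, OT7 had a difference of -3.46, OT14 one of -3.78 and OT15 one of -3.84.

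Pard6b is the Par6 scaffold that links Cdc42 to atypical protein kinase C. Its PD-SCC values of 3.28, 3.19, 3.28 and 3.22 were all under the bacterial controls, so the level there is only bounded. In WD-SCC it read 7.40 and, on the unnumbered array, 4.87 in OT7, 8.33 in OT14 and 8.84 in OT15, a spread of 3.97 that was the widest of the 9 genes. Its level in PD-SCC was lower by a factor of at least 12.7 (adjusted p = 0.0242), the bound being the mean WD-SCC level over the control level on the PD-SCC arrays. That bound is for the stage means and not for each lineage, since the fitted difference in OT7 was -2.90. A second probe set was also under the controls on all 4 PD-SCC arrays, at 2.95 to 3.27, and lower there (adjusted p = 0.0412). It put both OT7 WD-SCC arrays, at 4.17 and 4.04, well under the 6.36 of OT14 and the 6.37 of OT15.

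Llgl2, the epithelial Lgl protein that opposes atypical protein kinase C at the basolateral side, had the smallest difference of the 9. It read 4.61, 4.63, 4.65 and 4.54 in PD-SCC and 6.40, 5.50, 6.54 and 5.98 in WD-SCC. The PD-SCC arrays were nearly alike and the groups stood apart by less than 1 log2 unit at the nearest pair. The difference was -1.50 ± 0.22 (SE, adjusted p = 0.0147), 2.83-fold lower.

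Of 23 other genes of the Crumbs, Par and Scribble complexes, 0 rose and 1 fell, with a median difference of 0.07. Among all genes 12.6% were called in either direction and 4.81% were called lower, so 1 of 23 is near the latter share. The 1 that fell was Patj, a Crumbs complex scaffold, which was at or under the controls on every array of both stages (adjusted p = 0.0206), so it has no readable level. Its call was lost without any 1 PD-SCC array or the OT14 or OT15 WD-SCC array (adjusted p of up to 0.0757). Llgl1, the broadly expressed relative of Llgl2, read 5.59, 5.81, 6.03 and 5.95 in PD-SCC and 6.86, 5.41, 7.50 and 6.80 in WD-SCC, and the groups overlapped (difference -0.80, adjusted p = 0.189). Pard3, the Par complex scaffold, was higher on all 4 PD-SCC arrays without passing the test (difference 0.55, adjusted p = 0.0825), and the mean of its probe sets showed a difference of 0.0050 (adjusted p = 0.983). Dlg5 had a difference of 1.01 (adjusted p = 0.0786, and 0.49 over the mean of its probe sets) and the kinase gene Mark1 one of -0.33 (adjusted p = 0.0723).

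Both proteases and both inhibitors of the surface protease system were lower in PD-SCC. St14 encodes matriptase, a transmembrane serine protease of the epidermis. It read 4.65, 4.67, 4.73 and 4.78 in PD-SCC and 7.33, 6.59, 9.33 and 9.14 in WD-SCC, where both OT7 arrays were lowest. The difference was -3.39 ± 0.49 (SE, adjusted p = 0.0131), 10.5-fold lower, a call lost with the OT7 arrays of a stage averaged (adjusted p = 0.0646).

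Prss8 encodes prostasin, the membrane-anchored protease that works together with matriptase. Its PD-SCC values were 3.53, 3.36, 3.54 and 3.84, of which 1 was above the controls, and its WD-SCC values were 8.82, 6.75, 8.75 and 9.43, again lowest on the unnumbered OT7 array. The measured difference was -4.87 ± 0.49 (SE, adjusted p = 0.00575), with most PD-SCC values at background.

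Spint1, which encodes the matriptase inhibitor HAI-1, read 4.06, 4.44, 4.16 and 3.99 in PD-SCC and 6.74, 5.32, 7.24 and 7.74 in WD-SCC. All PD-SCC values lay above the controls, and the nearest WD-SCC value was that of the unnumbered OT7 array. The difference was -2.60 ± 0.47 (SE, adjusted p = 0.0252), 6.05-fold lower.

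Spint2, which encodes the second inhibitor HAI-2, kept a high value in PD-SCC of 1 lineage. Its PD-SCC values were 7.79 and 7.77 in OT7, 4.37 in OT14 and 4.36 in OT15, against WD-SCC values of 9.58 and 9.23 in OT7, 8.56 in OT14 and 8.34 in OT15. The OT7 arrays were thus the highest of both stages. The difference over lineages was -2.85 ± 0.52 (SE, adjusted p = 0.0256), 7.22-fold lower. It was made up of -1.62 in OT7, -4.19 in OT14 and -3.98 in OT15. OT14 and OT15 have 1 array per stage, so their differences carry no spread of their own. The second probe set of Spint2 showed the same split in PD-SCC, with 6.24 and 5.98 in OT7, 3.73 in OT14 and 3.82 in OT15. On the WD-SCC arrays it read 7.37 and 7.81 in OT7, 7.71 in OT14 and 6.55 in OT15, so OT7 was not the highest throughout (difference -2.42, adjusted p = 0.0298).

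The calls of Pard6b, Spint1, Spint2 and Llgl2 were close to the threshold. Without any 1 array other than the unnumbered OT7 WD-SCC array, the adjusted p of Pard6b, Spint1 and Spint2 was over 0.05, reaching 0.0777, 0.0800 and 0.0727. For Llgl2 it was 0.0514 without PD-SCC OT7-1 and 0.0509 without either OT14 array. Leaving lineage out of the fit also ended the call of Spint2 (adjusted p = 0.0772), and the differences stayed negative under every alternative run.

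Of 21 other genes listed with the membrane proteases, their inhibitors and substrates, 4 fell and 1 rose, with a median difference of -0.64. Among all genes 12.6% were called in either direction and 4.81% were called lower. Prss22 and Prss27, which also encode serine proteases, fell by 6.74 (adjusted p = 0.00225) and by 4.42 (adjusted p = 0.00651). Mst1r, the receptor for macrophage-stimulating protein, whose ligand matriptase can activate, fell by 2.48 (adjusted p = 0.0140, with 0.0509 without either OT14 array). The protease gene Tmprss13, above the controls on only 1 PD-SCC array, fell by 3.56 (adjusted p = 0.0333), a call lost without any 1 array (up to 0.0897). Met, the receptor for hepatocyte growth factor, averaged 8.40 ± 0.23 in PD-SCC and 7.45 ± 0.24 in WD-SCC (SD, n = 4 each). It rose by 0.96 (adjusted p = 0.0266), a call that cyclic loess scaling (0.58, adjusted p = 0.0624) and the mean of its probe sets (0.87, adjusted p = 0.0748) ended. The call was also lost without PD-SCC OT7-1, PD-SCC OT7-2, WD-SCC OT7-2 or either OT15 array (up to 0.0803). Cldn7, the claudin that Epcam holds at the membrane, was under the controls on all 4 PD-SCC arrays and read 7.56, 4.03, 7.31 and 8.39 in WD-SCC, where the unnumbered OT7 array was under them too. It was at least 8.74-fold lower but not past the threshold (adjusted p = 0.0554).

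**Figure D3:**
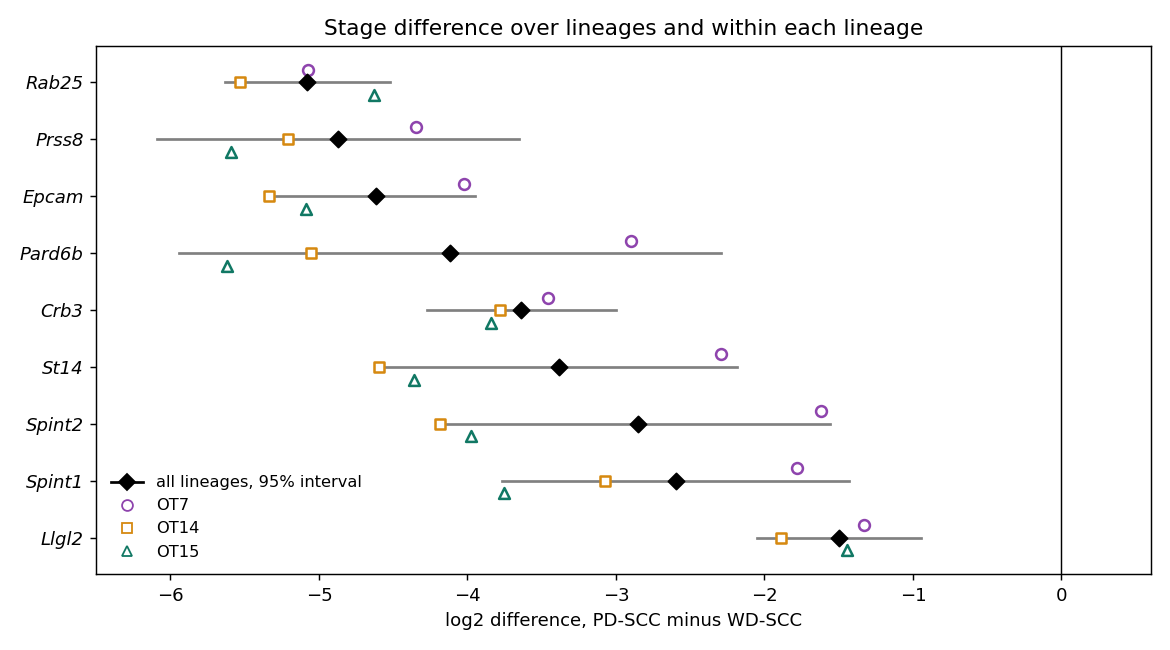
Log2 differences, PD-SCC minus WD-SCC, of the 9 genes over all lineages (black diamonds with the 95% interval) and within OT7, OT14 and OT15 (open symbols). All symbols lie left of 0, and the OT7 difference is the one nearest to 0 for every gene but Rab25.

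The estimated fall was mostly smallest in OT7. For Pard6b the plotted differences are fitted values against PD-SCC levels under the controls and not fold changes. For 8 of the 9 genes, all but Rab25, the fall was smaller in OT7 than in both other lineages, which held for 38.0% of the 823 genes called lower. That count rests on the unnumbered OT7 WD-SCC array. Without it, an alternative chosen after seeing the data, 5 of the 9 genes had a smaller fall in OT7, namely Epcam, Pard6b, St14, Spint1 and Spint2, beside 34.6% of the 823 genes, while Crb3 fell by 4.02 and Prss8 by 5.38 in OT7. Epcam had differences of -4.03 in OT7, -5.33 in OT14 and -5.09 in OT15, and St14 had -2.29, -4.60 and -4.36. The limma F test of a lineage difference, whose residual spread comes from the OT7 arrays alone, gave an unadjusted p under 0.05 for 3 of the 9 genes, with 0.0257 for Epcam, 0.0168 for St14 and 0.00182 for Spint2. Among all genes 2043 or 11.9% had as much, and after adjustment 0 of the 9 and 0% of all genes were called (0.339, 0.296 and 0.189 for these 3).

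The unnumbered OT7 array held the lowest WD-SCC value of 8 of the 9 genes, and Spint2 was the exception with its lowest value in OT15. Of the 823 genes called lower, 40.1% had their lowest WD-SCC value there, and of the 3759 genes with a WD-SCC mean of at least 6, 34.8% did. The mean over the 9 genes was 6.95 on that array, beside 8.07 on the other OT7 WD-SCC array and 8.42 and 8.41 in OT14 and OT15. On the PD-SCC arrays this mean was 4.54 and 4.51 in OT7, 4.13 in OT14 and 4.16 in OT15. The summed keratinocyte markers did not set that array apart, at 13.2 within a WD-SCC range of 12.6 to 13.5. The fibroblast sum was the highest there, at 12.9, and so was the Langerhans and dendritic sum, at 7.88. The endothelial sum was the lowest of the stage, at 7.02 beside 9.72 to 10.7, as was the sum of the haematopoietic list, at 10.1 beside 11.2 to 12.6. The Gapdh probe sets for the 3' and 5' ends differed by -0.04 on that array and by -0.53 to -0.14 on the other WD-SCC arrays. Those of Actb did not set it apart, at -0.50 beside -0.67 to -0.44 on the other WD-SCC arrays. The part of these cells and of RNA quality in the values of that array was not tested.

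Cell type markers moved with stage as well, where 12.6% of all genes were called in either direction and 4.81% were called lower. Of the 12 keratinocyte markers, 6 fell and 0 rose, and their summed level was 8.87 to 10.2 in PD-SCC and 12.6 to 13.5 in WD-SCC. Cdh1, the epithelial cadherin, read 2.99, 2.85, 2.83 and 3.21 in PD-SCC and 5.77, 5.35, 6.28 and 5.81 in WD-SCC. Its PD-SCC values were all under the controls, so its level there is only bounded, at least 4.31-fold lower. Krt14, the basal keratin, read 7.02 and 6.94 in OT7, 4.39 in OT14 and 4.57 in OT15 in PD-SCC. In WD-SCC it read 10.54, 10.82, 11.24 and 10.36. Of the 12 keratinocyte markers, only Krt14 and Perp had both OT7 arrays highest in PD-SCC, as Spint2 did. Perp read 8.99 and 8.07 in OT7, 5.79 in OT14 and 3.83 in OT15. Krt5 did not share this, at 4.33 and 4.17 in OT7, 4.22 in OT14 and 3.93 in OT15. Col17a1 was lowest in OT7, at 4.10 and 3.75 beside 4.28 in OT14 and 4.62 in OT15. Itga6, the α6-integrin of the sort, overlapped between stages, with 6.67, 6.14, 7.14 and 7.85 in PD-SCC and 7.99, 8.15, 7.55 and 5.32 in WD-SCC.

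Of 8 haematopoietic markers 3 fell, namely S100a8, S100a9 and Cd68. S100a8 and S100a9, which keratinocytes of squamous tumours also express, had the highest means of the list in WD-SCC and led its sum there. In PD-SCC they averaged 3.89 and 4.60, under Csf1r at 5.23 and Cd68 at 4.97. The summed level was 6.79 to 7.63 in PD-SCC and 10.1 to 12.6 in WD-SCC. Csf1r, Lyz2 and Cd3e overlapped between the stages, and Ptprc and Itgam were at or under the controls on all 8 arrays. Of 7 endothelial markers 1 fell, with sums of 6.52 to 8.65 in PD-SCC and 7.02 to 10.7 in WD-SCC, and Tek and Vwf were at or under the controls throughout. Fibroblast sums overlapped, at 9.95 to 11.6 in PD-SCC and 9.01 to 12.9 in WD-SCC. Of the 10 fibroblast markers 1 fell, namely Thy1 (difference -3.92, limma adjusted p = 0.000810). Melanocyte sums were 5.78 to 5.92 in PD-SCC and 5.82 to 6.08 in WD-SCC, with Mlana, Tyr and Dct at or under the controls. The sums of simple epithelium and gland markers were 8.15 to 11.3 in PD-SCC and 8.39 to 10.2 in WD-SCC. Among these markers Scd1 rose (difference 1.75) and Krt19 fell (difference -0.65). The part of any of these cells in the 9 differences was not tested.

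Factors reported to repress or activate epithelial surface genes moved in both directions. Of 20 measured, 3 rose and 8 fell, with a median difference of -0.47, where 12.6% of all genes were called in either direction and 4.81% lower. Zeb1, an E-box repressor, read 7.53, 7.72, 8.18 and 8.08 in PD-SCC and 6.17, 6.82, 6.92 and 5.16 in WD-SCC, and the groups did not overlap. It rose by 1.61 (adjusted p = 0.0402), a call that 75th percentile scaling (adjusted p = 0.0525) and cyclic loess (adjusted p = 0.0986) ended. Leaving out PD-SCC OT7-1, PD-SCC OT7-2, WD-SCC OT7-2 or either OT14 array ended it too (up to 0.104), and the mean of its probe sets differed by 0.98 (adjusted p = 0.0425). Snai1 rose by 0.66 (adjusted p = 0.0116), a call lost under 75th percentile scaling (0.0627), cyclic loess (0.127) and the fit without lineage (0.0559). Snai2, also of the SNAI family, did not rise, at a difference of -0.37 (limma adjusted p = 0.398). It was above the controls on 1 PD-SCC and 1 WD-SCC array. Twist1 rose by 1.90 (adjusted p = 0.0193) and lost its call without either OT7 PD-SCC array (up to 0.0546) or either OT15 array (0.0616). Zeb2 read 8.08, 7.26, 8.04 and 7.88 in PD-SCC and 7.65, 9.01, 7.03 and 7.21 in WD-SCC, so it overlapped, and its difference of 0.09 (adjusted p = 0.902) turned to -0.06 under 75th percentile scaling and -0.28 under cyclic loess.

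The factors that fell are known mainly as supporters of epithelial gene expression. Grhl3, a grainyhead factor of the epidermis, was lower by 4.50 (adjusted p = 0.00455), and Trp63, the keratinocyte master regulator, was lower by 3.78 (adjusted p = 0.00704). Both were above the controls on only 1 of the 4 PD-SCC arrays, so these are measured differences with most PD-SCC values at background. Over the mean of its probe sets Trp63 differed by -1.67 (adjusted p = 0.0263), and its call was lost with averaged OT7 arrays (0.0605) and without lineage OT7 (0.0516). The epithelial splicing factor Esrp2 was lower by 2.04 (adjusted p = 0.00464). Its relative Esrp1 was under the controls on all 4 PD-SCC arrays and at least 2.44-fold lower (adjusted p = 0.00630). Ovol1, a zinc finger factor of epidermal differentiation, was under the controls in PD-SCC as well and at least 15.2-fold lower (adjusted p = 0.0191). Its call was lost without any 1 array other than the unnumbered OT7 WD-SCC array (adjusted p of up to 0.0591). Grhl2, which activates several epithelial junction genes, was above the controls on all 4 PD-SCC and on 2 WD-SCC arrays and did not pass the test (difference -0.45, adjusted p = 0.108).

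**Figure D4:**
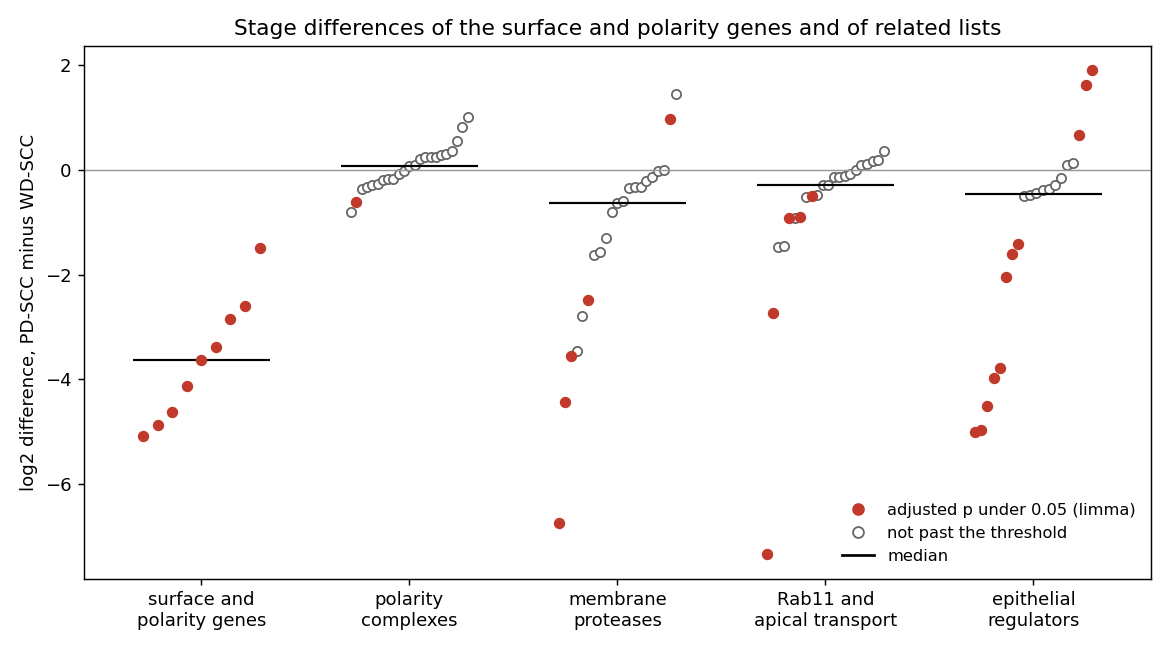
Log2 differences, PD-SCC minus WD-SCC, of the 9 genes and of 4 lists of related genes without them, with filled points past an adjusted p of 0.05 and the median as a line. The 9 genes lie between -5.08 and -1.50, while the medians of the lists lie between -0.64 and 0.07.

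The genes whose profile came nearest to the mean profile of the 9, by the root mean square difference of deviations from each gene's own mean over the 8 arrays, were Tmem125 (0.213), Bspry (0.262), Ephb3 (0.276), Ppifos (0.289) and Ccng2 (0.312). The 9 genes themselves had distances of 0.260 for Crb3, the nearest, to 1.10 for Llgl2 and 1.33 for Spint2, the farthest. All 5 were lower in PD-SCC, Tmem125 by at least 8.20-fold and the others by 3.37 to 3.86 on the log2 scale. Choice by nearness to the profile of the 9 genes made such falls the likely outcome, so they are no separate evidence.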

How the data were processed

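Each probe set has 1 deposited log2 value per array, which the authors made with affy and RMA per the submitters' processing notes, without versions. Values of 2.40 to 13.2 show the log2 scale. Groups and lineages came from the titles. Of 45141 probe sets, 28898 had 1 gene symbol, giving 17097 genes, of which 99.1% matched a RefSeq gene table. limma 3.58.1 in R 4.3.3 fitted stage with lineage as a block (4 residual degrees of freedom, two-sided, Benjamini-Hochberg over all genes, threshold 0.05), since the series design passes each lineage from WD-SCC to PD-SCC. A second fit with 1 coefficient per lineage and stage had 2 residual degrees of freedom. On simulated data whose gene spreads varied, its lineage test made no calls, so a lack of calls says little. For a gene under the bacterial controls throughout a stage the text gives only a bound on its fold, while plots and medians use fitted values. Such a bound is taken from stage means and leaves sampling error out. Python 3.11.15 drew the plots with matplotlib 3.10.9.

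The 9 genes and all lists were chosen with earlier results of these data known. Named were the 9 genes, the 4 smallest p of each list, Rab11a, Llgl1, Pard3, Cldn7, Zeb1, Zeb2, Grhl2 and Ovol1, and the 5 genes of nearest profile; 1 further gene of the rule is not reported here. Markers were named beside results. Snai1, Snai2, Twist1, Sytl1 and Tmprss13 were named after their values were seen. Alternatives were no block, a random block, averaged OT7 arrays, leaving out dim genes, averaging a gene's probe sets, the members' other probe sets, 75th percentile scaling, cyclic loess, values raised to the bacterial controls, a trended robust prior, and leaving out each array or lineage OT7. The lineage count without the unnumbered OT7 array was added after seeing the data.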

Additional observations from a re-analysis of the deposited data

How the results depend on the processing

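Rab25, Crb3 and Prss8 passed the threshold under every alternative run, and all 9 genes kept a negative difference. Lineage supplied the pairing, taken from the labels; without the replicate block 8 of the 9 genes and 2123 genes in all passed (2154 with it), and 2 polarity complex genes instead of 1, as with lineage as a random block (2) and with probe sets averaged (2). With the OT7 arrays of a stage averaged, 5 of the 9 genes passed (401 of all genes), with 0 polarity, 2 protease, 1 Rab11 and 3 regulator genes, and the design then has fewer arrays. The calls lost there were those of Pard6b, St14, Spint1 and Spint2 and, among other named genes, of Patj, Rab11a, Rab11fip1, Ap1m2, Sytl1, Esrp1, Trp63, Ovol1, Zeb1, Snai1, Twist1, Mst1r, Tmprss13 and Met (adjusted p of 0.0532 to 0.128). Without lineage OT7 these were 8 of the 9 genes, 246 of all genes, 0 polarity, 1 Rab11 and 4 regulator genes. Values raised to the bacterial controls gave 10511 calls among all genes, 8 polarity, 20 protease, 11 Rab11 and 18 regulator genes, because that floor is itself higher on the WD-SCC arrays. Without 1 array at a time, 5 to 9 of the 9 genes passed (5 without PD-SCC OT7-1 or either OT14 array), 886 to 1689 of all genes (886 without PD-SCC OT7-1), 0 to 2 polarity, 3 to 5 protease, 3 to 5 Rab11 and 7 to 11 regulator genes. Leaving out an OT14 or OT15 array removes its lineage from the stage effect. Zeb2 was reversed under 75th percentile scaling (-0.055), cyclic loess (-0.28) and single left-out arrays (-0.21 to 0.52). Itga6, at -0.30 with all arrays, became 0.15 with OT7 averaged and 1.06 without OT7, and -1.24 to 0.077 without 1 array. The cause of these changes was not tested. The median of all genes was -0.06, -0.21 under 75th percentile scaling and -0.04 under cyclic loess. No alternative run gave a lineage difference among the 9 genes, and that test could not be fitted without lineage OT7. No array stood outside the others of its group by Dixon's criterion in the 18 groups of 4 arrays examined. Probe sets near the controls limit the low values.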
